A study of Mus musculus with 6 samples.

Results

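The insulin-like growth factor (IGF) axis was followed through 8 genes, chosen by name: the ligand gene Igf1, the receptor gene Igf1r and the binding protein genes Igfbp2, Igfbp3, Igfbp4, Igfbp5, Igfbp6 and Igfbp7. All 8 were found among the 28584 gene symbols of the expression table. The RNA came from 1 mouse embryonic stem cell (mESC) line of mixed C57BL/6 and 129S6 origin, which in every group had first been grown with LIF on MEF feeder cells treated with mitomycin C. The cells then spent 10 passages in a serum-containing basic medium without cytokine (-LIF-ESCs), with 1000 U/mL leukaemia inhibitory factor (LIF-ESCs) or with 10 ng/mL oncostatin M in place of LIF (OSM-ESCs). Each group had 2 libraries, and whether feeder cells were still present during these passages is not given in the sources used here.

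IGF1 is a secreted growth factor that signals through the receptor tyrosine kinase IGF1R, which passes the signal on through IRS adaptor proteins to PI3K and Akt. IGF-binding proteins (IGFBPs) hold most of the IGF outside cells and can keep it from the receptor, lengthen its life or release it when proteases cut them, and several of them also act on cells without IGF. LIF and oncostatin M are related cytokines that signal through gp130, and LIF is used to keep mESCs pluripotent in culture.

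Igfbp2, Igfbp3, Igfbp4 and Igfbp7 had the 4 largest log2 fold changes against -LIF-ESCs, in either direction, among the 7 genes of the axis that were tested. For that reason the 150 bases before their transcription starts are shown, 5′ to 3′ on the strand of the gene, from the RefSeq annotation of GRCm38.p6. Capitals mark TATAAA, the letters of a TATA box, and GGGCGG, the letters of a GC box, each searched on both strands (so CCGCCC is also in capitals). No match overlapped another.
Igfbp2, chr1:72824330-72824479, plus strand: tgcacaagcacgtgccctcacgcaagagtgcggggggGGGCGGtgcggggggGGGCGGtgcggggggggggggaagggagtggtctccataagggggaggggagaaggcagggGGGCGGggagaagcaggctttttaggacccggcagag
Igfbp3, chr11:7213924-7214073, minus strand: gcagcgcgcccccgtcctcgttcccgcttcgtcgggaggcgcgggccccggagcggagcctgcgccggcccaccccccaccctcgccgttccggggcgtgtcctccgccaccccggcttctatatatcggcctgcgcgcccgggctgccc
Igfbp4, chr11:99041094-99041243, plus strand: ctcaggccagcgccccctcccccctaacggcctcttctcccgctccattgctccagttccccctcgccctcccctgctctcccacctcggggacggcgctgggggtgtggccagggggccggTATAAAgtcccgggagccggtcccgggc
Igfbp7, chr5:77408046-77408195, minus strand: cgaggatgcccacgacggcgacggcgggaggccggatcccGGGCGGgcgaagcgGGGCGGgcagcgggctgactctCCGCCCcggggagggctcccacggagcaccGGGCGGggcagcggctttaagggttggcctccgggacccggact

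The 300-base window from 250 bases before to 50 bases after the RefSeq start was searched for all 8 genes. GGGCGG occurred 3 times in the window of Igfbp2, 4 times in that of Igfbp7 and 2 times in that of Igf1r, and 35.7% of all 32851 windows held it. TATAAA was found at position -28 of Igfbp4 and at position -148 of Igfbp6, against 13.6% of all windows. TTCNNNGAA, the palindrome that STAT factors bind, was in 0 of the 8 windows and in 8.30% of all windows, and TGACGTCA, the letters of a cAMP response element, was in 0 of the 8 and in 1.79% of all. CpG pairs numbered 48 in the window of Igf1r, 37 in Igfbp3, 33 in Igfbp7, 27 in Igfbp4 and 18 in Igfbp2, but 10 in Igfbp5, 8 in Igfbp6 and 6 in Igf1, with a median of 7 over all windows. These are matches of letters only, and the RefSeq start of Igf1 lies 2846 bases and that of Igf1r 570 bases from the start in the GENCODE M21 gene models.

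By those GENCODE M21 models (GRCm38), Igfbp2 (ENSMUSG00000039323, chr1:72824503-72852474, plus strand) and Igfbp5 (ENSMUSG00000026185, chr1:72857932-72874884, minus strand) are neighbours 5457 bases apart with 0 protein-coding genes between them. Igfbp3 (ENSMUSG00000020427, chr11:7206086-7213923, minus strand) and Igfbp4 (ENSMUSG00000017493, chr11:99041244-99054392, plus strand) lie far apart on chromosome 11. Igf1 is at chr10:87858265-87937042 (plus strand), Igf1r at chr7:67952827-68233668 (plus strand), Igfbp6 at chr15:102144362-102149511 (plus strand) and Igfbp7 at chr5:77349240-77408041 (minus strand). Exons of Igfbp7 share 85 of their 1209 bases (7.03%) with exons of Polr2b, an RNA polymerase II subunit gene on the other strand, and the strand setting of the read counting is not given.

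Expression was given as TPM, a unit that corrects read numbers for gene length and sets every library to the same total. Reads recovered from the TPM values summed to between 20712939 and 28994417 per library, and replicates differed by more than sampling noise, the chi-square averaging 2.03 to 3.49 per gene. Comparisons used limma on log2(TPM + 1), a scale that understates the change of low genes, for 18556 genes, those that reached 1 TPM in 2 or more libraries. A call needed both an adjusted p under 0.05 and an absolute log2 fold change of 1 or more. Permuting 2 libraries against 2 allows no exact two-sided p smaller than 0.3333, which leaves the p-values to the model. Of the 8 genes 7 were tested, since Igf1 was below the limit in every library, and Igfbp6 was close to it in -LIF-ESCs. Markers of mESCs were present in all groups: their 10 genes summed to 5502 to 5520 TPM without cytokine, 7480 to 7531 TPM with LIF and 6962 to 7007 TPM with OSM, with none at 0. By limma's adjusted p alone 8 were higher and 1, Nanog, was lower in each cytokine group. The shares of all tested genes were 42.2% and 25.9% with LIF and 42.9% and 25.4% with OSM. Nanog had means of 433, 290 and 261 TPM without cytokine, with LIF and with OSM. Dppa5a, the largest part of each sum, had 2942, 3060 and 2901 TPM.

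Igfbp2, Igfbp3 and Igfbp4 were lower in both cytokine groups than without cytokine, by 11.8-fold, 16.6-fold and 3.42-fold with LIF and by 13.5-fold, 14.9-fold and 3.03-fold with OSM, as ratios of mean TPM. Igfbp7 was 8.59-fold higher in LIF-ESCs and 13.7-fold higher in OSM-ESCs, and the receptor gene Igf1r was 2.35-fold and 2.06-fold lower. Of the 7 genes tested, 1 was called higher and 4 lower in LIF-ESCs, where 13.3% of all tested genes were called higher and 8.09% lower. With OSM 2 were called upward and 3 downward, against 14.2% and 7.86% of all tested genes. By the adjusted p alone, 2 stood higher and 4 lower in LIF-ESCs (42.2% and 25.9% of all tested genes) and 3 stood higher and 4 lower with OSM (42.9% and 25.4%). Both comparisons use the same -LIF libraries. In RNA from whole cultures, fewer cells of a type and less RNA per cell cannot be told apart.

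**Figure D1:**
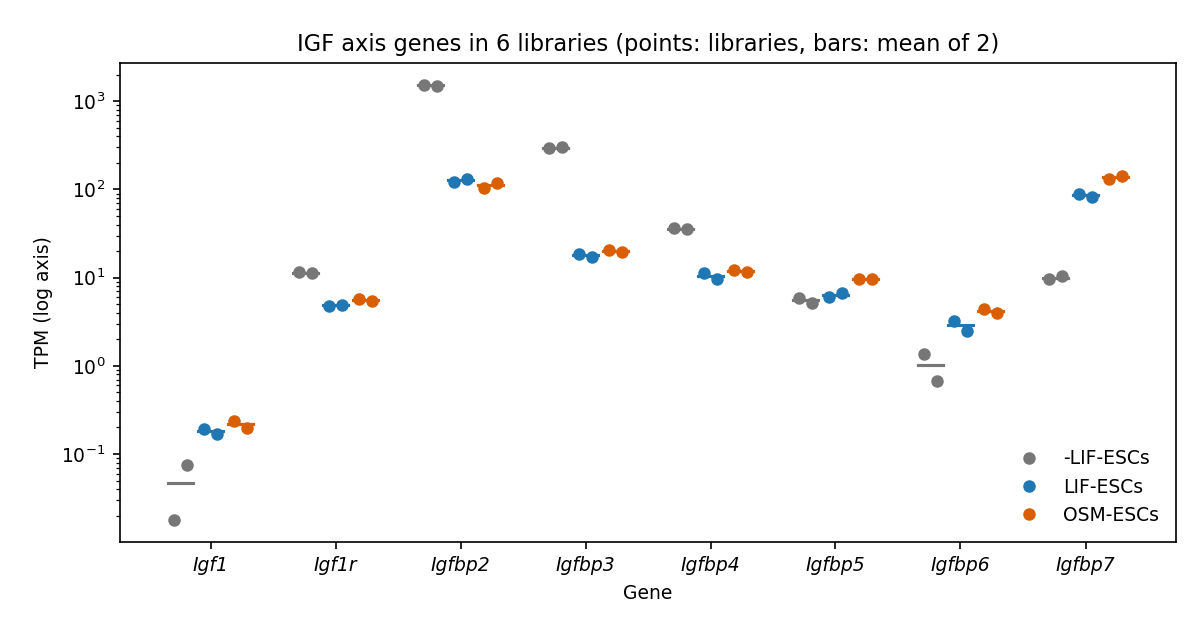
TPM (log axis) of the 8 IGF axis genes in each of the 6 libraries; points are libraries and horizontal bars the mean of 2. Igfbp2, Igfbp3, Igfbp4 and Igf1r sit highest in -LIF-ESCs, while the mean of Igfbp7 is 10.0 TPM without cytokine, 86.1 TPM with LIF and 137 TPM with OSM.

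Igf1, the ligand gene, was close to the limit of detection in every library. It had 0.0178 and 0.0760 TPM without cytokine, 0.194 and 0.168 TPM with LIF and 0.240 and 0.200 TPM with OSM. These values stood for 2 and 7 reads without cytokine, 18 and 15 reads with LIF and 24 and 24 reads with OSM. The -LIF libraries were the lowest, and the groups did not overlap. Pooled over the libraries of a group, the TPM ratio was 4.11 for LIF-ESCs over -LIF-ESCs (95% exact interval 1.92 to 9.77) and 4.95 for OSM-ESCs over -LIF-ESCs (2.40 to 11.5), intervals that cover counting error only. When limma was run without the limit on low values, Igf1 did not pass in either comparison (log2 fold change 0.17 with adjusted p = 0.151, and 0.22 with adjusted p = 0.0810). At 0.240 TPM or less, the log2(TPM + 1) scale kept its fold change under the limit of a call. That fit therefore cannot decide whether Igf1 changed.

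Igf1r, which encodes the receptor of IGF1, had 11.5 and 11.3 TPM without cytokine, 4.75 and 4.95 TPM with LIF and 5.68 and 5.42 TPM with OSM. The -LIF libraries were both above all 4 cytokine libraries. Its level fell from 11.4 ± 0.167 TPM (SD, n = 2) to 4.85 ± 0.139 TPM with LIF, a log2 fold change of -1.08 (SE 0.0691, limma adjusted p = 9.48e-05). With OSM it fell to 5.55 ± 0.185 TPM, a log2 fold change of -0.92 (adjusted p = 1.64e-04), which did not reach the fold limit of a call. After rescaling of the libraries by their median ratio the OSM value was -1.09 and was called, as it was with a pseudocount of 0.1 (-1.03) and with voom on the recovered reads (-1.17).

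Igfbp2 encodes a binding protein that is abundant in fetal tissues, and it had the highest level of the 8 genes in -LIF-ESCs. It stood at 1540 and 1488 TPM without cytokine, at 123 and 133 TPM with LIF and at 105 and 119 TPM with OSM. No cytokine library came near the -LIF libraries, and the libraries of the cytokine groups lay next to each other without overlap. The mean fell from 1514 ± 37.5 TPM (SD, n = 2) to 128 ± 7.33 TPM with LIF, a log2 fold change of -3.55 (SE 0.0702, limma adjusted p = 3.79e-06). With OSM it fell to 112 ± 9.38 TPM, a log2 fold change of -3.75 (adjusted p = 3.02e-06).

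Igfbp3 encodes the main IGF carrier of blood, where it joins IGF and the acid-labile subunit in a ternary complex. Its values were 295 and 302 TPM without cytokine, 18.8 and 17.2 TPM with LIF and 20.7 and 19.5 TPM with OSM. Both -LIF libraries were far above the rest, and LIF-ESCs were the lowest group. The fall from 299 ± 4.67 TPM (SD, n = 2) to 18.0 ± 1.12 TPM in LIF-ESCs was a log2 fold change of -3.98 (SE 0.0574, limma adjusted p = 2.05e-06), the most negative among the 7 genes tested. The fall to 20.1 ± 0.842 TPM in OSM-ESCs was one of -3.83 (adjusted p = 2.12e-06).

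Igfbp4, whose product is a substrate of the protease PAPP-A, showed the same direction at a lower level. It had 36.3 and 35.4 TPM without cytokine, 11.2 and 9.74 TPM with LIF and 12.1 and 11.6 TPM with OSM. The -LIF libraries were again the highest. From 35.9 ± 0.629 TPM (SD, n = 2) the mean fell to 10.5 ± 1.07 TPM with LIF and 11.9 ± 0.390 TPM with OSM. The log2 fold change was -1.68 with LIF (limma adjusted p = 3.49e-05) and -1.52 with OSM (adjusted p = 4.49e-05).

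Markers of other cell types differed between the same libraries. Genes of simple epithelium or trophoblast summed to 2361 to 2383 TPM without cytokine, 60.6 to 61.7 TPM with LIF and 71.95 to 77.03 TPM with OSM, and 7 of the 8 tested were called lower with LIF and 6 with OSM. Mesoderm genes summed to 100.0 to 101 TPM, 4.70 to 5.30 TPM and 3.85 to 4.70 TPM in the same order, with 5 of 6 called lower in each comparison. Of all tested genes, 8.09% were called lower with LIF and 7.86% with OSM. None of either list's measured genes was at 0 in both libraries of a group. Their part in the fall of Igfbp2, Igfbp3, Igfbp4 and Igf1r was not tested.

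Igfbp7 encodes a secreted IGFBP-related protein that binds IGFs weakly and is also made by vessels and stroma. It had 9.57 and 10.5 TPM without cytokine, 90.0 and 82.2 TPM with LIF and 131 and 142 TPM with OSM. The groups stood in 3 separate steps, with OSM-ESCs the highest. The rise from 10.0 ± 0.649 TPM (SD, n = 2) to 86.1 ± 5.50 TPM in LIF-ESCs was a log2 fold change of 2.98 (SE 0.0732, limma adjusted p = 6.58e-06). The rise to 137 ± 7.82 TPM in OSM-ESCs was one of 3.64 (adjusted p = 3.63e-06). Polr2b, which shares exon bases with it, ran the other way, at 75.4 and 81.6 TPM without cytokine, 67.9 and 67.1 TPM with LIF and 65.7 and 60.3 TPM with OSM.

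Igfbp6, whose product prefers IGF2 to IGF1, had 1.35 and 0.676 TPM without cytokine, 3.26 and 2.49 TPM with LIF and 4.45 and 4.004 TPM with OSM. It rested on few reads, 17 and 7 without cytokine, 34 and 25 with LIF and 50 and 54 with OSM, and the groups did not overlap. The log2 fold change was 1.40 with OSM (SE 0.201, limma adjusted p = 0.00194), which was called. It was 0.96 with LIF (adjusted p = 0.00827), just under the fold limit, and was called without -LIF replicate 1 (1.20) or without LIF replicate 2 (1.10). Its TPM ratio from pooled reads was 2.76 for LIF-ESCs over -LIF-ESCs (95% exact interval 1.69 to 4.63) and 4.02 for OSM-ESCs over -LIF-ESCs (2.56 to 6.56).

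Igfbp5, the neighbour of Igfbp2, encodes a binding protein that attaches to extracellular matrix. Its values were 5.93 and 5.12 TPM without cytokine, 6.00 and 6.74 TPM with LIF and 9.72 and 9.72 TPM with OSM. The OSM libraries were the highest, and the LIF and -LIF libraries came close to each other, with means of 5.52 ± 0.572 TPM without cytokine, 6.37 ± 0.522 TPM with LIF and 9.72 ± 0.00334 TPM with OSM (SD, n = 2). It differed from -LIF-ESCs by 0.18 on the log2 scale with LIF (95% interval -0.06 to 0.42, limma adjusted p = 0.153), near the median of 0.165 over all tested genes. With OSM the log2 fold change was 0.72 (adjusted p = 0.00138), under the fold limit, against a median of 0.182 over all tested genes. The pair of adjacent genes thus differed in direction in OSM-ESCs, with Igfbp2 lower and Igfbp5 higher than in -LIF-ESCs.

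Most fibroblast marker genes were also higher in both cytokine groups, their list summing to 91.6 to 97.6 TPM without cytokine, 335.5 to 339.8 TPM with LIF and 477.7 to 478.3 TPM with OSM. Of the 15 genes on that list 14 were tested, and 12 were called higher and 0 lower in each cytokine group, with Fap, an activated fibroblast marker, at 0 in both -LIF libraries. Col5a1 of that list went the other way, at a mean of 42.95, 23.92 and 36.14 TPM in the same order. Its log2 fold changes were -0.82 with LIF and -0.24 with OSM (limma adjusted p = 4.24e-05 and 0.00345). Primitive or parietal endoderm genes summed to 432 to 434 TPM, 432 to 444 TPM and 469 to 479 TPM in the same order, with 6 of 11 called higher with LIF and 5 with OSM. Sparc, the largest part of each endoderm sum, went the other way, at a mean of 316.2, 220.5 and 269.3 TPM. Its log2 fold changes were -0.52 with LIF and -0.23 with OSM (limma adjusted p = 1.37e-04 and 0.00285). Of all tested genes, 13.3% were called higher with LIF and 14.2% with OSM. The part of the genes of these 2 lists in the rise of Igfbp6 and Igfbp7 was not tested.

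**Figure D2:**
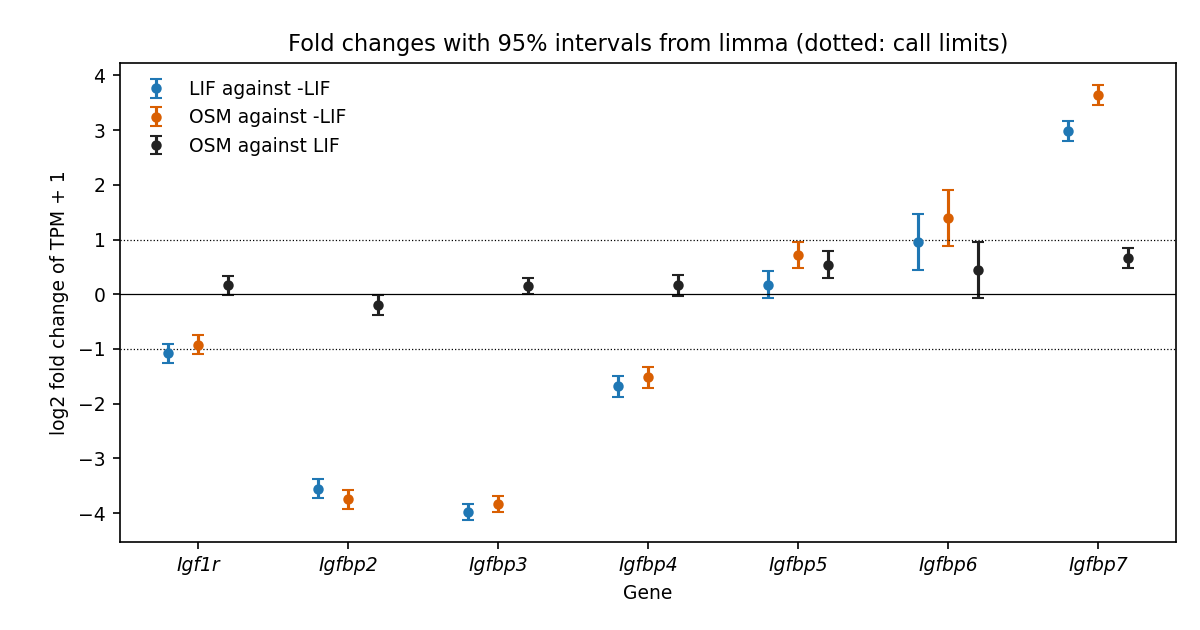
Log2 fold change of TPM + 1 with 95% interval from limma for the 7 tested genes in the 3 comparisons; dotted lines mark the limits of a call at 1 and -1. Igfbp2 and Igfbp3 lie between -3.55 and -3.98 in both comparisons with -LIF-ESCs, Igfbp7 lies at 2.98 and 3.64, and all values of OSM against LIF lie between -0.19 and 0.66.

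The order of the levels, read in TPM and so per length, changed with the medium. In -LIF-ESCs it ran from Igfbp2 through Igfbp3, Igfbp4, Igf1r, Igfbp7, Igfbp5 and Igfbp6 to Igf1. In LIF-ESCs Igfbp7 moved to the second place behind Igfbp2, and Igfbp5 stood above Igf1r. In OSM-ESCs Igfbp7 was the highest of the 8 genes, followed by Igfbp2. Libraries of neighbouring genes did not overlap in any group. The closest neighbours were Igf1r and Igfbp7 in -LIF-ESCs, 0.19 apart on the log2 scale with a pooled SD of 0.068. Igfbp4 and Igfbp5 in OSM-ESCs were 0.29 apart with a pooled SD of 0.034, and Igfbp7 and Igfbp2 in OSM-ESCs were also 0.29 apart with a pooled SD of 0.10.

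Summed TPM of the 6 binding protein genes was 1889 and 1841 without cytokine, 252.1 and 251.6 with LIF and 283.6 and 305.7 with OSM. Without cytokine the sum was thus several times that of any cytokine library. Igfbp2 made up 81.2 ± 0.537% of it without cytokine (SD, n = 2), 50.8 ± 2.99% with LIF and 37.9 ± 1.17% with OSM. Igfbp7 made up 0.538 ± 0.0446%, 34.2 ± 2.13% and 46.5 ± 0.189% in the same order. Most of the lost sum was Igfbp2 and Igfbp3, while Igfbp7 took a larger share of what was left. Per TPM of Igf1r, the summed binding protein TPM was 164 without cytokine, 51.9 with LIF and 53.2 with OSM. The TPM of Igfbp7 over that of Igfbp2 was 0.00663 without cytokine, 0.675 with LIF and 1.23 with OSM, as means of 2 libraries.

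**Figure D3:**
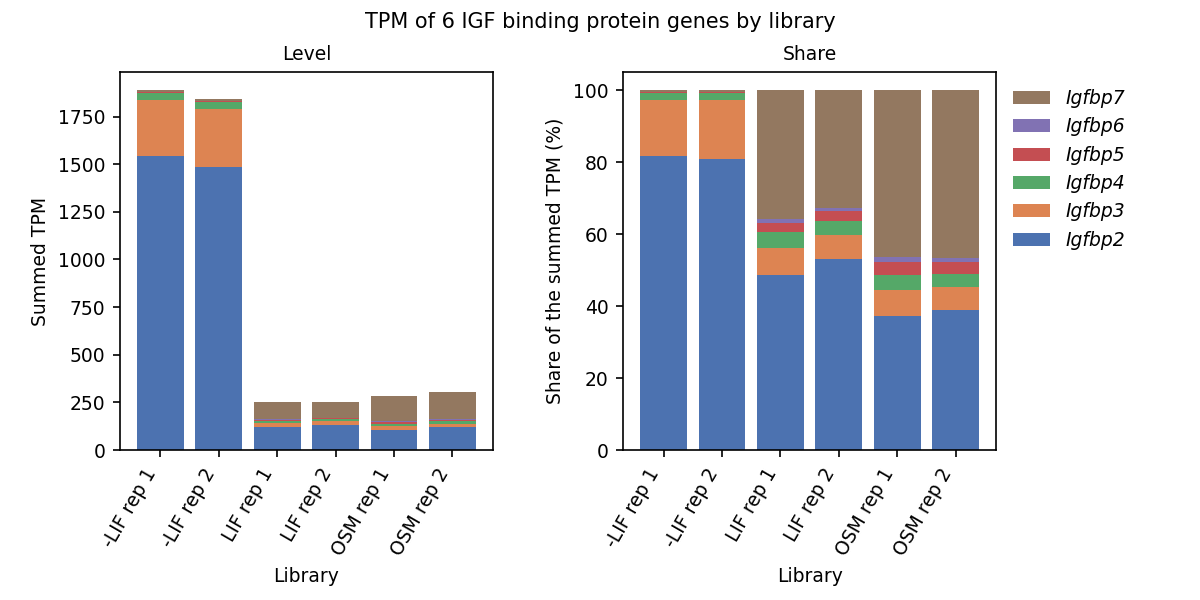
Stacked bars of the 6 binding protein genes in each library, as summed TPM (left) and as percent of that sum (right). Igfbp2 fills 81.2% of the bar on average in -LIF-ESCs and 37.9% in OSM-ESCs, where Igfbp7 fills 46.5%.

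OSM-ESCs and LIF-ESCs were compared directly to see where the cytokines differed. Of the 7 genes tested, 0 were called higher and 0 lower, where 0.0323% and 0.0485% of all tested genes were called. By limma's adjusted p alone 1 was higher and 0 lower, against 0.463% and 0.129% of all tested genes. With limma's voom on the recovered reads 0 were called, against 22 higher and 28 lower of 18431 genes. By the voom adjusted p alone 2 were higher and 0 lower, against 970 higher and 472 lower of those 18431 genes. The gene past the adjusted p was Igfbp7, 1.59-fold higher in OSM-ESCs with a log2 fold change of 0.66 (95% interval 0.48 to 0.85, adjusted p = 0.0462), and both OSM libraries were above both LIF libraries. This p was under 0.05 in 2 of 14 alternative settings and lay between 0.0557 and 0.261 in the others, where a replicate block gave 0.140, so the call on the difference of Igfbp7 between the cytokines depends on the setting. Igfbp5 was 1.53-fold higher in OSM-ESCs, with an interval of 0.30 to 0.78 and an adjusted p of 0.0935, and Igfbp6 was 1.47-fold higher, with an interval of -0.07 to 0.95 and an adjusted p of 0.390.

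The genes that were high without cytokine had log2 differences between -0.19 and 0.16, OSM against LIF, and did not pass the adjusted p. The 95% interval of this difference was -0.01 to 0.34 for Igf1r, -0.37 to -0.02 for Igfbp2, 0.01 to 0.30 for Igfbp3 and -0.03 to 0.36 for Igfbp4. Adjusted p-values from limma were 0.357, 0.293, 0.305 and 0.405 in that order. The TPM ratio of Igf1 from pooled reads was 1.20, with a 95% exact interval of 0.757 to 1.94.

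Marker lists also differed between the cytokine groups. All 14 fibroblast genes tested had a positive log2 difference, OSM against LIF, between 0.25 and 0.63, with a median of 0.40 against 0.00768 over all tested genes, and 3 passed limma's adjusted p. The shares of all tested genes past that p were 0.463% higher and 0.129% lower in OSM-ESCs. Genes of vascular smooth muscle or endothelium summed to 424 to 447 TPM without cytokine, 435 to 443 TPM with LIF and 693 to 701 TPM with OSM, and 3 of the 4 tested, the smooth muscle genes Acta2, Tagln and Cnn1, passed the adjusted p upward. Mean TPM without cytokine, with LIF and with OSM was 30.7, 226 and 375 for Acta2. It was 354, 168 and 279.5 for Tagln and 24.1, 6.03 and 10.75 for Cnn1 in the same order. Tagln and Cnn1 were thus highest without cytokine, unlike Acta2. Pecam1, the one endothelial gene tested, had a log2 difference of -0.28, OSM against LIF (limma adjusted p = 0.0786). The endoderm genes had a median of -0.23, with Amn at -0.86 (limma adjusted p = 0.0464). The 10 mESC genes had a median of -0.15, between -0.24 and 0.03, and 0 passed the adjusted p. With a replicate block 0 genes of any of these lists passed the adjusted p, and these genes were named after their values were seen. Of the fibroblast and vascular lists none of the measured genes was at 0 in LIF-ESCs or OSM-ESCs, and their part in the difference of Igfbp7 was not tested.

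**Figure D4:**
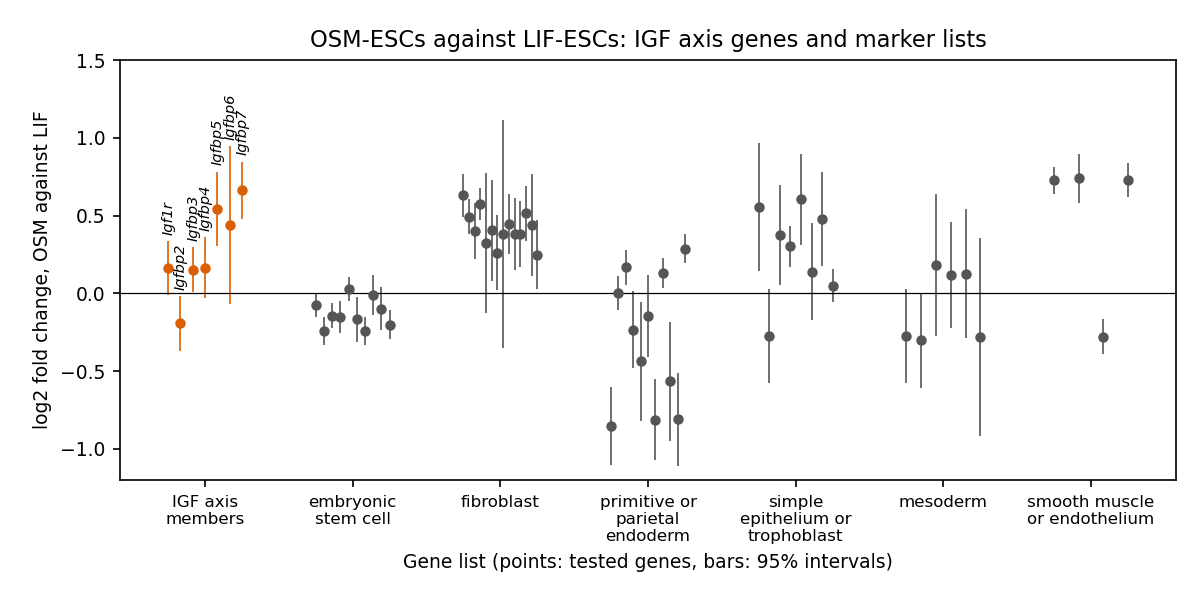
Log2 fold change of OSM-ESCs against LIF-ESCs with 95% interval for the 7 tested IGF axis genes (orange) and for the tested genes of 6 marker lists (grey). Igfbp5, Igfbp6 and Igfbp7 lie at 0.54, 0.44 and 0.66, and the fibroblast genes lie between 0.25 and 0.63.

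Other genes of the IGF pathway were read from 5 lists of 48 genes, of which 44 were in the table and 42 were tested. In LIF-ESCs 9 were called higher and 2 lower than in -LIF-ESCs, and the calls with OSM were 9 upward and 3 downward, where the shares of all tested genes were 13.3% and 8.09% with LIF and 14.2% and 7.86% with OSM. By the adjusted p alone 23 were higher and 8 lower in each, against 42.2% and 25.9% of all tested genes with LIF and 42.9% and 25.4% with OSM. Their median log2 fold change was 0.34 with LIF and 0.35 with OSM, against 0.165 and 0.182 over all tested genes. Because those medians lie above 0, the counts were repeated after rescaling by the median ratio, which gave 6 higher and 3 lower with LIF and 7 higher and 3 lower with OSM. Over all 18556 tested genes rescaling gave 1946 higher and 1896 lower with LIF, and 2063 higher and 1895 lower with OSM.

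Among ligands and receptors, Igf2, the imprinted gene of the second IGF, had 48.2 and 50.8 TPM without cytokine, 91.8 and 85.3 TPM with LIF and 120 and 113 TPM with OSM. Its level was far above that of Igf1 in every library. The log2 fold change was 0.83 with LIF (limma adjusted p = 1.22e-04) and 1.22 with OSM (adjusted p = 3.42e-05). Igf2r, the receptor that clears IGF2, rose by 1.05 with LIF and 1.22 with OSM, and its LIF value was 0.88 after rescaling. The insulin receptor gene Insr had log2 fold changes of -0.22 and -0.09, neither past the adjusted p.

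Igfals, which encodes the acid-labile subunit that joins IGFBP3 and IGFBP5 complexes, had log2 fold changes of 1.05 with LIF and 0.94 with OSM, of which only the LIF value was called, and 0.93 and 0.81 after rescaling. Igfbpl1, an IGFBP-like gene, had -0.07 and -0.29, neither past the adjusted p.

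Of 7 tested genes for IGFBP proteases and their inhibitors, 4 were called higher and 0 lower in each cytokine group. Of all tested genes, 13.3% were called higher with LIF and 14.2% with OSM. After rescaling 3 of the 7 were called higher in each group, against 1946 of all 18556 tested genes with LIF and 2063 with OSM. Pappa, whose product cuts IGFBP4, had 0.328 and 0.351 TPM without cytokine, 3.03 and 3.04 TPM with LIF and 4.86 and 4.34 TPM with OSM. Stc2, whose product inhibits PAPP-A, had 12.1 and 11.6 TPM, 52.4 and 51.3 TPM, and 52.3 and 50.04 TPM in the same order. The protease gene and the gene of its inhibitor were thus both higher with either cytokine, by 1.59 and 2.04 on the log2 scale with LIF and by 2.06 and 2.02 with OSM. As ratios of mean TPM, Pappa rose 8.92-fold with LIF and 13.5-fold with OSM, and Stc2 rose 4.39-fold and 4.33-fold. Adam12, a metalloprotease gene, rose by 1.22 and 1.76 on the log2 scale. Its mean was 0.079 TPM without cytokine, from 8 and 9 reads, 1.52 TPM with LIF and 2.65 TPM with OSM. As ratios of mean TPM the rise was 19.2-fold and 33.5-fold. Htra1, a serine protease gene, rose by 1.13 and 1.09 on the log2 scale, and by 0.98 and 0.93 after rescaling, under the fold limit. Mmp2, a gelatinase gene, went the other way, by -0.74 and -0.31, and was the one gene of the 5 lists past the adjusted p between OSM-ESCs and LIF-ESCs (0.44, limma adjusted p = 0.0424), a pass that was lost with a replicate block.

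On the log2(TPM + 1) scale, adaptor genes of IGF1R held the largest changes of the 5 lists. Grb10, an imprinted gene whose product restrains signalling from the insulin and IGF1 receptors, had 2.68 and 3.64 TPM without cytokine, 153 and 148 TPM with LIF and 135 and 129 TPM with OSM. It rose by 5.20 on the log2 scale with LIF (limma adjusted p = 4.81e-06) and by 5.00 with OSM (adjusted p = 4.83e-06). Irs2, which encodes a docking protein that carries the signal to PI3K, had 52.1 and 55.5 TPM without cytokine, 4.79 and 5.17 TPM with LIF and 6.00 and 7.07 TPM with OSM. Its log2 fold changes were -3.20 and -2.87 (adjusted p = 8.92e-06 and 1.12e-05). Irs1, its relative, fell by 0.75 with LIF and by 0.25 with OSM, both past the adjusted p and under the fold limit. In -LIF-ESCs Igf1r and Irs2 were thus high and Grb10 low, and with either cytokine the order of Irs2 and Grb10 was the reverse.

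In the PI3K-Akt core, 2 of 22 genes were called higher in each cytokine group. The shares of all tested genes called higher were 13.3% with LIF and 14.2% with OSM. Pdpk1, whose product phosphorylates Akt, rose by 1.36 with LIF and 1.31 with OSM. Foxo3, a transcription factor gene under Akt control, rose by 1.22 and 1.07, the latter 0.89 after rescaling. Foxo4, its relative, had -0.97 and -1.03 and was called with OSM, and with LIF after rescaling (-1.14).

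**Figure D5:**
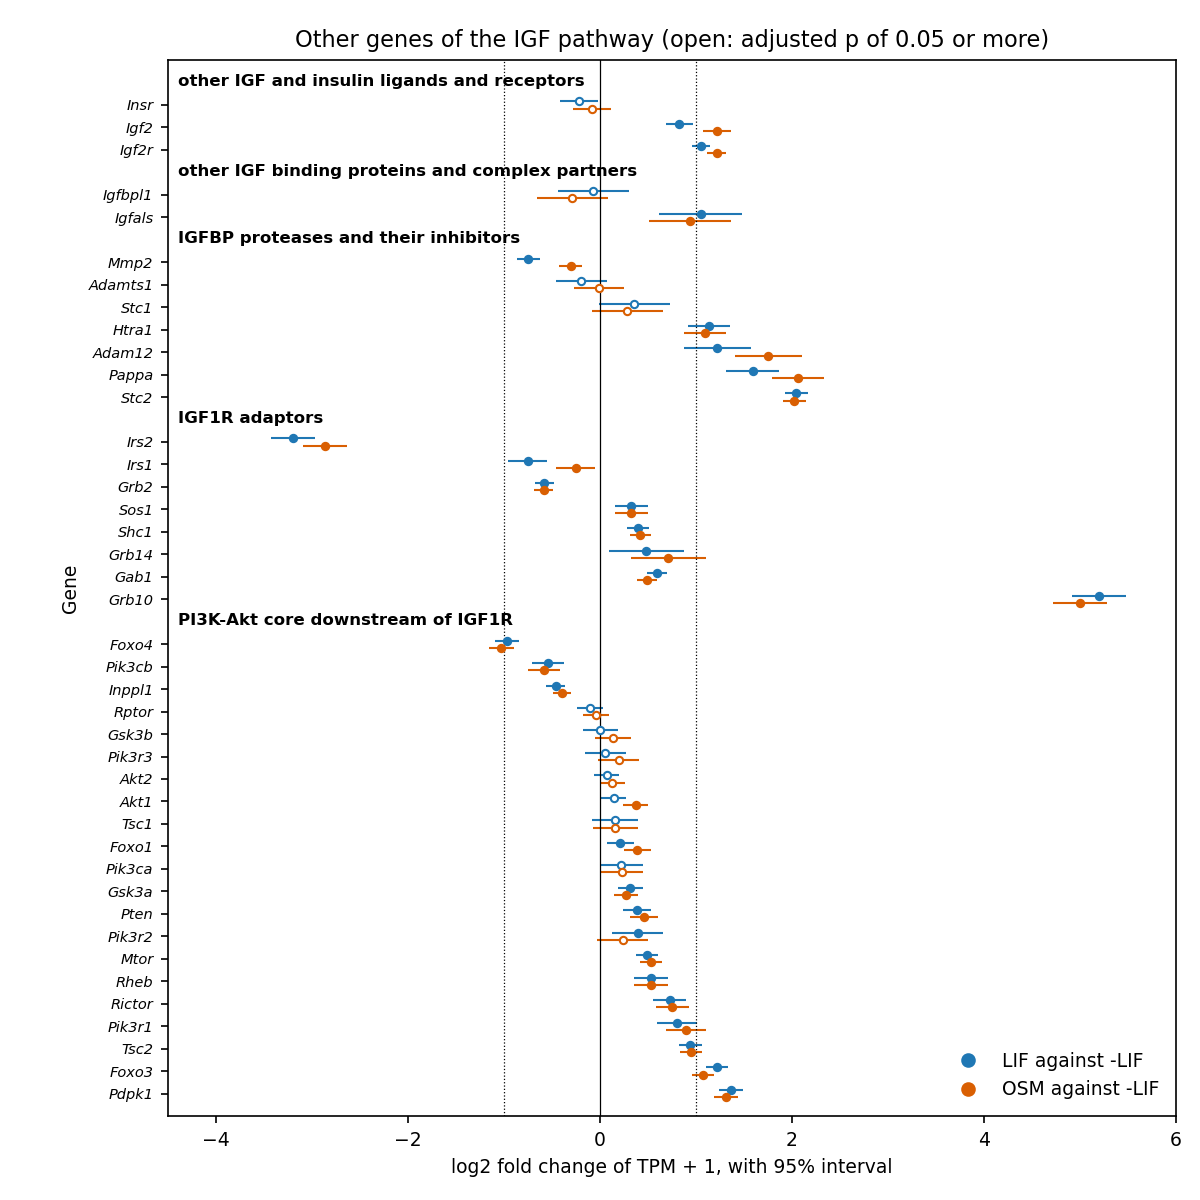
Log2 fold change of TPM + 1 with 95% interval for tested genes of the 5 pathway lists, 1 of which is left out, LIF against -LIF and OSM against -LIF; open points have an adjusted p of 0.05 or more, and dotted lines mark 1 and -1. Grb10 lies at 5.20 and 5.00, and Irs2 lies at -3.20 and -2.87.

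In the direct comparison of the cytokines 0 of the 42 pathway genes were called, against 0.0323% higher and 0.0485% lower of all tested genes. By limma's adjusted p alone 1 was higher and 0 lower, against 0.463% and 0.129%. With voom on the recovered reads 0 were called, and 9 were higher and 2 lower by the adjusted p alone. Over all 18431 genes in the voom fit, 970 were higher and 472 lower by that p. Irs1 (0.50, adjusted p = 0.0807), Igf2 (0.39, adjusted p = 0.0672), Adam12 (0.53, adjusted p = 0.184) and Pappa (0.47, adjusted p = 0.154) did not pass in the limma fit.

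For each tested gene of the axis, the genes with the most similar pattern over the 6 libraries were ranked by the root mean square difference of their centred log2(TPM + 1) values, as a description. Axin2, a feedback inhibitor gene of Wnt signalling, was nearest to Igf1r (0.0343), with mean TPM of 15.5, 6.499 and 7.46 in -LIF-ESCs, LIF-ESCs and OSM-ESCs, followed by Rfc3 and Fbxo36. Among the nearest to Igfbp2 were Peg10 (0.112) and Msgn1 (0.128), and the imprinted gene Peg10 had 684, 53.1 and 52.6 TPM. Car2, a carbonic anhydrase gene, was nearest to Igfbp3 (0.0616), with 178, 10.3 and 12.4 TPM, before Msgn1 and Acta1. Msgn1, a regulator of presomitic mesoderm, was thus on both lists and had 13.0 TPM in -LIF-ESCs and was listed at 0 in the cytokine groups. With Msgn1 at 0 there, its closeness depends on the 1 added to each TPM value, and its fold change in TPM is not defined.

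Kcnk1 (0.0429), Bok and Arrb1 were nearest to Igfbp4. Acta2, the smooth muscle actin gene, was nearest to Igfbp7 (0.0851), with 30.7, 226 and 375 TPM, followed by the stromal genes S100a4 and Ddr2, and Acta2 and S100a4 were on the marker lists above. Ddr2 had 0.616, 11.02 and 16.3 TPM, and the log2(TPM + 1) scale understates a change from so low a level. Sgcb (0.0515), Sspn and Dst were nearest to Igfbp5, and they encode a sarcoglycan, sarcospan and a cytoskeletal linker. For Igfbp6 the distances were among the widest (0.120 to 0.121), to Cd63-ps, Xkr6 and Tnfsf13.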

How the data were processed

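RNA-seq of mESCs was analysed from 6 libraries, 2 biological replicates each of -LIF-ESCs, LIF-ESCs and OSM-ESCs. The authors captured mRNA with poly-T beads, aligned reads to mm10 with HISAT2 after Trimmomatic, counted them with featureCounts and deposited TPM values. Versions, annotation, strand setting and the step to TPM are not given in the sources used here. The authors tested counts with DESeq2, which was not repeated.

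Of 28584 symbols, 28404 (99.4%) were found once in GENCODE M21 (GRCm38). Dividing by 1 step per library and exon length gave whole reads, within 0.02 read in all 6 libraries, for 26954 genes (94.9%). The log2(TPM + 1) values were computed from the deposited TPM and fitted over the 3 groups with limma 3.58.1 in R 4.3.3 (eBayes with a trend), with 3 residual degrees of freedom and Benjamini-Hochberg adjustment over 18556 genes. Thresholds followed the study's methods. Alternatives were a pseudocount of 0.1, other filters (none, 5 TPM), no trend, only the groups compared, a replicate block, median ratio rescaling, voom on recovered reads, no fold limit and each library left out. Steps were tested on simulated data.

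The genes and lists were chosen with earlier results of these data known. Named were the 8 genes, pathway genes called in any comparison or at the ends of a list's range, and the 3 tested genes nearest to each gene of the axis, without unnamed gene models. Values of 2 genes that this rule names are not reported here. Irs1, Igf2, Adam12 and Pappa between OSM-ESCs and LIF-ESCs were picked after their values were seen. Python 3.11.15 with pandas 2.3.3, numpy 2.4.6, scipy 1.17.1 and matplotlib 3.10.9 made tables and plots.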

Additional observations from a re-analysis of the deposited data

Results flagged for a closer look

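The response of Igfbp7 to OSM exceeded its response to LIF by 0.66 on the log2 scale (95% interval 0.48 to 0.85, limma adjusted p = 0.0462), and this difference between the cytokines drew attention by passing the test of the difference itself. Both OSM libraries (131 and 142 TPM) were above both LIF libraries (90.0 and 82.2 TPM). Over 14 alternative settings the log2 difference stayed between 0.60 and 0.73, while the adjusted p ran from 1.47e-07 with voom to 0.261 with 1 library left out and was under 0.05 in 2 of them. Groups of 2 libraries are too small for a search for outlying libraries.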

How the results depend on the processing

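Of 291 recomputed log2 fold changes of the IGF axis genes, 278 kept their direction and side of the adjusted p threshold and 0 reversed. The other 13 were Igfbp7, OSM against LIF, in 12 settings where its p rose above 0.05, and Igfbp5, OSM against LIF, with voom (0.62, adjusted p = 1.00e-04). The cause was not tested. Axis genes called higher with LIF were 2 in place of 1 with a pseudocount of 0.1, with voom and with no fold limit, and 1 to 2 with 1 library left out, Igfbp6 being added. With OSM they were 1 with a filter of 5 TPM, which removed Igfbp6, and against LIF 1 with no fold limit. Igf1r joined the lower calls with OSM, 4 in place of 3, with a pseudocount of 0.1, rescaling and voom. Pathway genes without a fold limit were 23 higher and 8 lower with LIF, 23 higher and 8 lower with OSM, and 1 higher in OSM against LIF. With voom 4 were lower with LIF. Of 537 pathway values 5 reversed, all uncalled in OSM against LIF with 1 library left out: Htra1 ran from -0.10 to 0.021, Igfals from -0.24 to 0.022 and Stc2 from -0.051 to 0.011. Calls over all genes in OSM against LIF were 6 higher and 9 lower, 22 and 28 with voom, 3 and 3 with a pseudocount of 0.1, 13 and 7 without a filter, 3 and 7 at 5 TPM, 6 and 4 without a trend, 0 and 0 in a fit of only those groups, and 0 to 1 higher and 0 lower with 1 library left out, where a lone library is assumed to vary like the others. Called lower with LIF were 2316 with voom in place of 1502, and with OSM 2334 in place of 1459. The share of higher calls fell with rescaling, to 1946 higher and 1896 lower with LIF (from 2470 and 1502) and to 2063 and 1895 with OSM (from 2630 and 1459). Deviations of same-numbered libraries correlated at -0.04, -0.02 and 0.03. These values show no strong effect shared by replicate number, and cannot show whether same-numbered samples were handled together. The replicate block left the axis genes called at 1 higher and 4 lower with LIF and 2 higher and 3 lower with OSM, and took the calls over all genes in OSM against LIF to 0 and 0. Depth limits Igf1 (2 to 24 reads) and Igfbp6 (7 to 54 reads), and 2 libraries a group limit every p-value.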

Other observations

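Insrr, the insulin receptor-related receptor gene, had 0.139 and 0 TPM in -LIF-ESCs, 0 and 0.0776 TPM in LIF-ESCs and 0.0693 and 0.0289 TPM in OSM-ESCs, with overlapping groups. Irs4, an IRS adaptor gene, had 0.421 and 0.256 TPM in -LIF-ESCs, 0.914 and 0.951 TPM in LIF-ESCs and 0.834 and 0.747 TPM in OSM-ESCs, below the limit for testing. Adaptor genes past the adjusted p and under the fold limit included Gab1 (0.59 with LIF and 0.49 with OSM on the log2 scale, limma adjusted p = 1.22e-04 and 2.38e-04) and Grb2 (-0.58 and -0.59, adjusted p = 1.11e-04 and 1.05e-04). The TPM of Igf2 over that of Igf1 lay between 474 in LIF replicate 1 and 2701 in -LIF replicate 1, where Igf1 rested on 2 reads. These genes were chosen after their values were seen.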
